A study of Mus musculus with 9 samples.

Results

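The 39 Hox cluster genes of the mouse were measured by RNA sequencing in embryonic stem (ES) cells with and without overexpression of LAMP2A, a lysosomal membrane protein. They were taken from the count table as every gene whose symbol is Hoxa, Hoxb, Hoxc or Hoxd followed only by digits, which gave 39 of the 24421 genes listed. The cells were D3, a mouse ES cell line cultured without feeders on gelatin, with serum and leukemia inhibitory factor. VT cells stably carried the pCDH control vector, LAMP2A cells overexpressed LAMP2A, and LAMP2A+DM-αKG cells overexpressed LAMP2A and were kept for 72 h in 4 mM DM-αKG. This protein is the form of LAMP2 that takes up proteins into the lysosome in chaperone-mediated autophagy, and DM-αKG (dimethyl α-ketoglutarate) is an ester of the metabolite α-ketoglutarate that enters cells. Each group had 3 libraries. The sources used here do not say whether a line was 1 clone or a pool, whether untreated cells got a vehicle, or whether the 3 libraries came from different cultures. If they did not, the spread behind the p-values is that of these samples alone and may be technical.

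Hox genes encode homeodomain transcription factors that give cells of the embryo their position along the head-to-tail axis. They lie in 4 clusters, and genes at the same place in different clusters (a paralog group, 1 to 13) descend from 1 ancestral gene. Genes of low number are used first and reach furthest forward, into the hindbrain, while genes of high number act in the lower trunk, limbs, genital region and tail. In ES cells the clusters are known as targets of Polycomb repression, and they open when cells are differentiated, for example with retinoic acid. Hox proteins bind DNA together with TALE homeodomain partners of the PBX and MEIS families.

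Hox transcripts were scarce in VT, abundant in LAMP2A and scarce again in LAMP2A+DM-αKG. All Hox genes together gave 750 counts in the 3 VT libraries and 1091 in LAMP2A+DM-αKG, but 19093 in LAMP2A. In CPM, which corrects counts for the depth and TMM factor of each library, their sum was 9.59 ± 0.332 for VT, 208 ± 1.34 for LAMP2A and 13.7 ± 0.478 for LAMP2A+DM-αKG (mean ± SD, n = 3, as for all levels below). The sum was thus 21.7-fold higher in LAMP2A than in VT, and 15.2-fold lower in LAMP2A+DM-αKG than in LAMP2A. In these bulk samples more or fewer cells that use Hox genes, and more or less Hox RNA per cell cannot be told apart. In VT, 9 Hox genes had no count in any library, 10 had 1 to 3 counts over the group, and 3, Hoxb9 and Hoxc13 among them, reached a mean of 1 CPM. In LAMP2A, 24 genes reached 1 CPM and 1 gene, Hoxc11, had no count. In LAMP2A+DM-αKG, 5 genes had no count (Hoxa9, Hoxb5, Hoxb6, Hoxc5 and Hoxc8), and the 3 genes at 1 CPM or more were those of VT. A count of 0 over a group allows up to 0.0383 CPM for VT, 0.0327 for LAMP2A and 0.0376 for LAMP2A+DM-αKG (3 counts over the group, for counting error only).

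**Figure D1:**
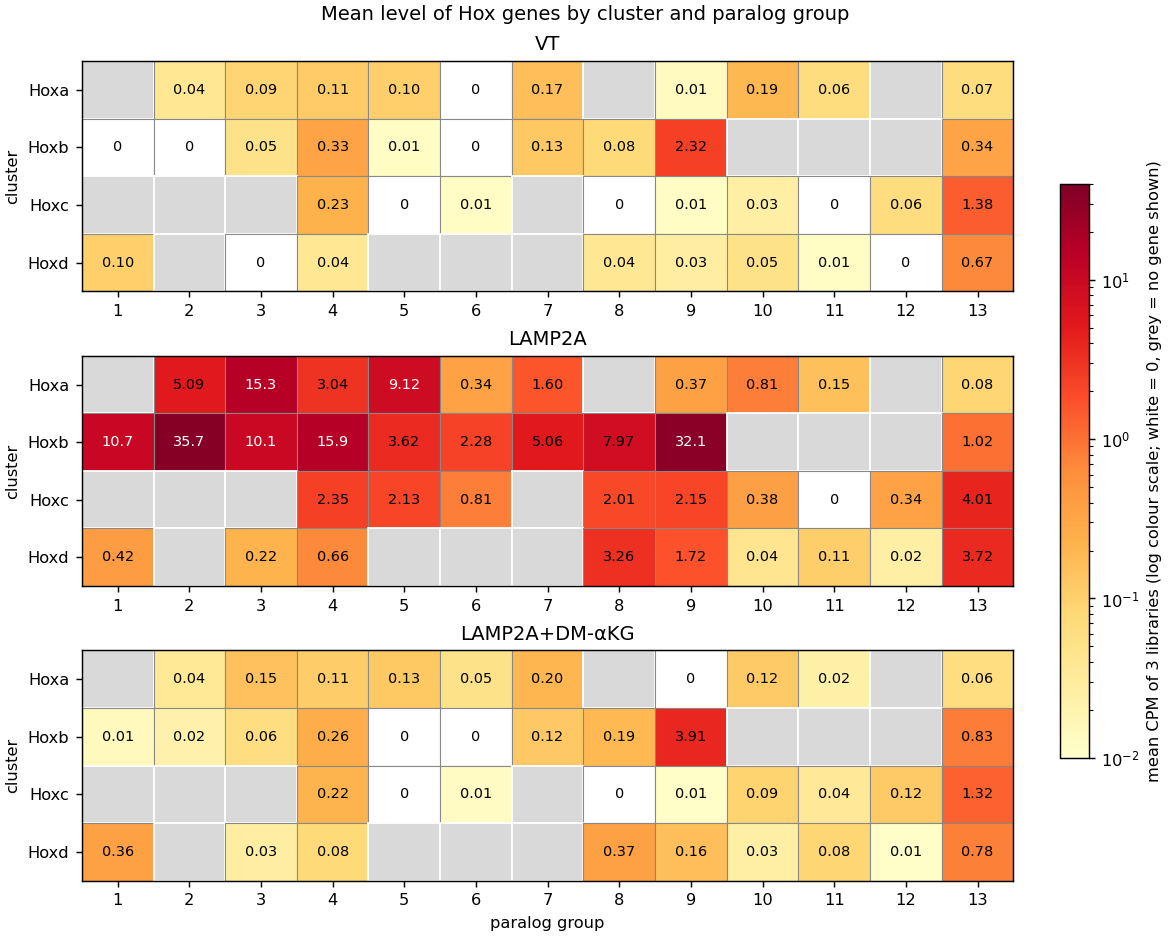
Mean CPM of Hox genes over 3 libraries, by cluster (rows) and paralog group (columns), for the 3 groups, on a log colour scale with white for 0 counts and grey where no gene is shown. The LAMP2A panel is darkest on its left, with Hoxb2 at 35.7 CPM, while in the other panels Hoxb9 and Hoxc13 are the genes shown that reach 1 CPM.

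For 35 of the 39 Hox genes all 3 LAMP2A libraries lay above all 3 VT libraries, and for none did they lie below. Among all 19319 genes with a count, 36.7% lay above in this way and 33.2% below, since most of the transcriptome differed between these groups. The 4 Hox genes whose groups overlapped were Hoxa13, Hoxc11, Hoxd10 and Hoxd12, which had at most 7 counts in any group. A gene is said to rise or fall where its Benjamini-Hochberg adjusted p in the edgeR quasi-likelihood test was under 0.05. In a fit of all genes without a filter on low counts, 34 of the 39 Hox genes rose, against 35.4% of genes, and 0 fell, against 32.8%. With the filter, which asks for enough counts in at least 3 libraries, 28 Hox genes could be tested and 28 rose, where 43.0% of the 14513 tested genes rose and 42.1% fell. That count has no weight of its own: only 5 Hox genes pass the filter on VT and LAMP2A+DM-αKG libraries alone, so the rest entered through their level in LAMP2A. In the authors' deposited table of LAMP2A against VT, 36 Hox genes are listed, of which 33 are called higher and 0 lower. The share called among all 16283 genes listed there was not computed.

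Libraries held 23636074 to 32809875 counts. Lamp2 itself, whose count includes the added gene if its reads align there, was at 58.2 ± 1.64 CPM for VT and 404 ± 2.24 for LAMP2A, as that label says. The treated libraries, which carry the label too, were at 97.2 ± 2.00 CPM. The part of this lower Lamp2 level in the lower Hox levels was not tested. All 8 ES cell markers (such as Pou5f1 and Nanog) fell in LAMP2A and rose with DM-αKG: their sum ran from 7292 to 7711 CPM for VT, from 1733 to 1737 for LAMP2A and from 6252 to 6298 for LAMP2A+DM-αKG. Among all tested genes 43.0% rose and 42.1% fell in LAMP2A, and 41.1% rose with DM-αKG. Markers of several other cell types were higher in LAMP2A, while those of paraxial mesoderm and blood were mixed. Low markers can pass the filter through their level in LAMP2A, which bears on the counts of markers that rose. The part of any of these markers in the Hox result was not tested. Of 12 fibroblast and feeder markers, 11 were tested, of which 10 rose and 1 fell. The list summed to 31.8 to 33.8, 241 to 246 and 39.4 to 44.1 CPM in the 3 groups. For neural tube and hindbrain 4 of 8 were tested and 4 rose (16.3 to 17.2, 51.6 to 52.1 and 10.6 to 11.7 CPM). For parietal and visceral endoderm 7 of 8 rose and 1 fell (379 to 415, 827 to 838 and 579 to 617 CPM). For lateral and extraembryonic mesoderm 5 of 6 rose (79.1 to 81.8, 160.5 to 166 and 57.4 to 60.2 CPM). For paraxial mesoderm 3 of 5 tested rose and 1 fell, with a lower sum in LAMP2A (72.8 to 84.3, 35.1 to 37.6 and 57.7 to 59.6 CPM), with Msgn1 at 0 counts, and for blood 1 of 3 tested rose and 2 fell (4.84 to 5.39, 15.20 to 16.03 and 3.89 to 4.50 CPM).

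The regulatory sequence just upstream of some of these genes is shown because these genes range from absent in VT and well counted in LAMP2A to no difference in counts. RefSeq promoter windows, which span the transcription start, on GRCm38.p6, the build also called mm10, were matched for 22 of the 39 genes and gave 24 windows. Hoxb1 (chr11:96365508-96365807, plus strand) went from 0 counts in VT to 981 in LAMP2A, and Hoxb4 (chr11:96318017-96318316, plus strand) rose from a measurable level. Hoxb8 (chr11:96281655-96281954, plus strand) and Hoxd8 (chr2:74704365-74704664, plus strand) rose from a few counts, and Hoxd10 (chr2:74691641-74691940, plus strand), next to Hoxd9, stayed at 4 counts in both groups. Capitals mark matches, on either strand, to 5 words: TGATNNAT (joint PBX and HOX sites), TGACAG (MEIS), TTTATG (CDX), AGGTCA (a retinoic acid receptor half-site) and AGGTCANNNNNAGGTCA (a retinoic acid response element, which contains that half-site).
Hoxb1: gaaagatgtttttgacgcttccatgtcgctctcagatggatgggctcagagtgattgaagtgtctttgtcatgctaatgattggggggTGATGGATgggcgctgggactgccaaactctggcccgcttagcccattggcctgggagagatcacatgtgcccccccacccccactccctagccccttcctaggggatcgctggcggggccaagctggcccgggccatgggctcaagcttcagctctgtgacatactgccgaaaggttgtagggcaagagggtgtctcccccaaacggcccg
Hoxb4: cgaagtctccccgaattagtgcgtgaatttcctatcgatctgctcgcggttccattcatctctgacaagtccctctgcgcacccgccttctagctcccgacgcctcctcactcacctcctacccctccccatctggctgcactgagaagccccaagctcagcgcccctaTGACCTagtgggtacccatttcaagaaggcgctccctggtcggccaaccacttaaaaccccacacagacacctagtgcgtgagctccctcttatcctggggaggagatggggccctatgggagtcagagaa
Hoxb8: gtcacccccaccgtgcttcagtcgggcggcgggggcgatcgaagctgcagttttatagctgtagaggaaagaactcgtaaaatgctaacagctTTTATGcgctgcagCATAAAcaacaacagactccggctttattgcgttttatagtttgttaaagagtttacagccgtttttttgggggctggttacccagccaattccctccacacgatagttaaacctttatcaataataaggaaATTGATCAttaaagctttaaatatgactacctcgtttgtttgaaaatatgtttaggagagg
Hoxd8: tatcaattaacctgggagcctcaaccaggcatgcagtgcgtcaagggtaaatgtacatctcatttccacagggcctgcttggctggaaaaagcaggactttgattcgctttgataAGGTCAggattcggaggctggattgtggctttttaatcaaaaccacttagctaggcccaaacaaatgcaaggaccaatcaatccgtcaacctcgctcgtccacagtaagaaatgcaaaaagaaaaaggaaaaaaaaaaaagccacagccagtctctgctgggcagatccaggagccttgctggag
Hoxd10: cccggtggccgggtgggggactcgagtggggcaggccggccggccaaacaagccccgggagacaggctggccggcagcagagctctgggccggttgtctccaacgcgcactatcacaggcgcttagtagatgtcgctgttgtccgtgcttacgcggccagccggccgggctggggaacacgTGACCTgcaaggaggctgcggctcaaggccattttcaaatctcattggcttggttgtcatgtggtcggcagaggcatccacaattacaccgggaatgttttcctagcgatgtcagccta

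The PBX and HOX word was found in 4 of the 24 Hox windows (Hoxa2, Hoxb1, Hoxb8 and Hoxd11), 16.7%, against 8.85% of all 32841 windows. The MEIS word was in 2 windows (Hoxa2 and Hoxa3), 8.33% against 19.2%. The CDX word was in 5 (Hoxa7, Hoxb8, Hoxd3, Hoxd4 and one of the Hoxd11 windows), 20.8% against 11.9%. The retinoic acid receptor half-site was in 7 (Hoxa5, Hoxb4, Hoxc4, Hoxd3, Hoxd4, Hoxd8 and Hoxd10), 29.2% against 16.3%, and the full response element in 0 of 24, against 0.00913% of all windows. Both Hoxd8, which rose, and Hoxd10, which was not tested for want of counts, hold the half-site. The Hox windows were rich in CG, with a median of 14.5 CpG per window against 7 for all and a median GC content of 57.7% against 52.7%. These matches are descriptions of the letters in the window, and no binding was measured.

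The Hoxb cluster (chromosome 11, 96194316 to 96368256 on mm10, 10 genes) was highest in LAMP2A. Its summed level was 3.26 ± 0.702 CPM for VT, 124 ± 1.02 for LAMP2A and 5.40 ± 0.440 for LAMP2A+DM-αKG, a 38.2-fold difference between LAMP2A and VT. It took 34.1% of all Hox counts in VT and 59.8% in LAMP2A. For all 10 genes the LAMP2A libraries lay above the VT libraries. The genes at its anterior end, Hoxb1 and Hoxb2, went from no count at all to at least 299 counts in each library.

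Hoxb2, which acts in hindbrain segments and facial motor neurons, had 0, 0 and 0 counts in VT, 1178, 1094 and 998 in LAMP2A, and 0, 0 and 2 with DM-αKG added. Its level in LAMP2A was 35.7 ± 1.64 CPM, at least 928-fold higher than in VT. Hoxb1, which gives identity to a single hindbrain segment, had 0, 0 and 0 counts in VT, 348, 334 and 299 in LAMP2A, and 1, 0 and 0 with DM-αKG added. The difference from VT was at least 278-fold. In both genes the groups were fully apart, and the 3 treated libraries were as near to 0 as VT. Hoxb3, also of the hindbrain, had 0, 3 and 1 counts in VT and 320, 353 and 257 in LAMP2A, a log2 fold change of 7.51 (8.72 without VT replicate 2). On the annotation used here 52.9% of the exon bases of Hoxb3 and 27.3% of those of Hoxb2 lie opposite the antisense gene Hoxb3os, and because the strand setting of the counting is not given, the part of antisense reads in their counts was not tested.

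Hoxb4, known for expanding blood stem cells, had 8, 11 and 7 counts in VT, 516, 523 and 424 in LAMP2A, and 3, 8 and 10 with DM-αKG added. The levels were 0.332 ± 0.0732, 15.9 ± 0.290 and 0.256 ± 0.113 CPM. Hoxb4 rose by 5.56 on the log2 scale (SE 0.142, adjusted p = 3.7e-28). The ratio was 47.9 (95% counting interval 32.6 to 73.6), which is wider than that SE implies, so the SE is too small here. Hoxb5 had 1 count in VT against 120, 119 and 94 in LAMP2A, a ratio of 284 (95% counting interval 50.6 to 11236). Hoxb6 had 0 in VT against 66, 69 and 72, at least 58.8-fold higher. These 2 genes, of cervical and thoracic levels, had 0 counts in all 3 treated libraries too. Hoxb7 had 3, 3 and 4 counts in VT and 166, 152 and 145 in LAMP2A, and rose by 5.25 (SE 0.230). Hoxb8, studied for its hold on immature myeloid cells, had 1, 4 and 1 against 249, 259 and 222, a log2 fold change of 6.61 (7.51 without VT replicate 2).

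Hoxb9, a patterning gene of the thoracic spine and ribs, differed from its neighbours in being well counted in VT. It had 51, 76 and 55 counts in VT, 1085, 1039 and 827 in LAMP2A, and 101, 96 and 114 with DM-αKG added. The level went from 2.32 ± 0.427 to 32.1 ± 1.07 CPM, a rise of 3.78 on the log2 scale (SE 0.083, adjusted p = 4.2e-30). Per kilobase of exon it was the highest Hox gene in LAMP2A, at 12.5 ± 0.42 CPM per kb. Hoxb2 was at 10.2 ± 0.47 and Hoxb4 at 6.21 ± 0.11 CPM per kb, each further from Hoxb9 than the spread. Hoxb13, a gene of the prostate and tail that lies apart at the far end of the cluster, had 6, 13 and 8 counts in VT against 30, 39 and 25. Its rise was small, 1.56 (SE 0.294, adjusted p = 1.2e-05).

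**Figure D2:**
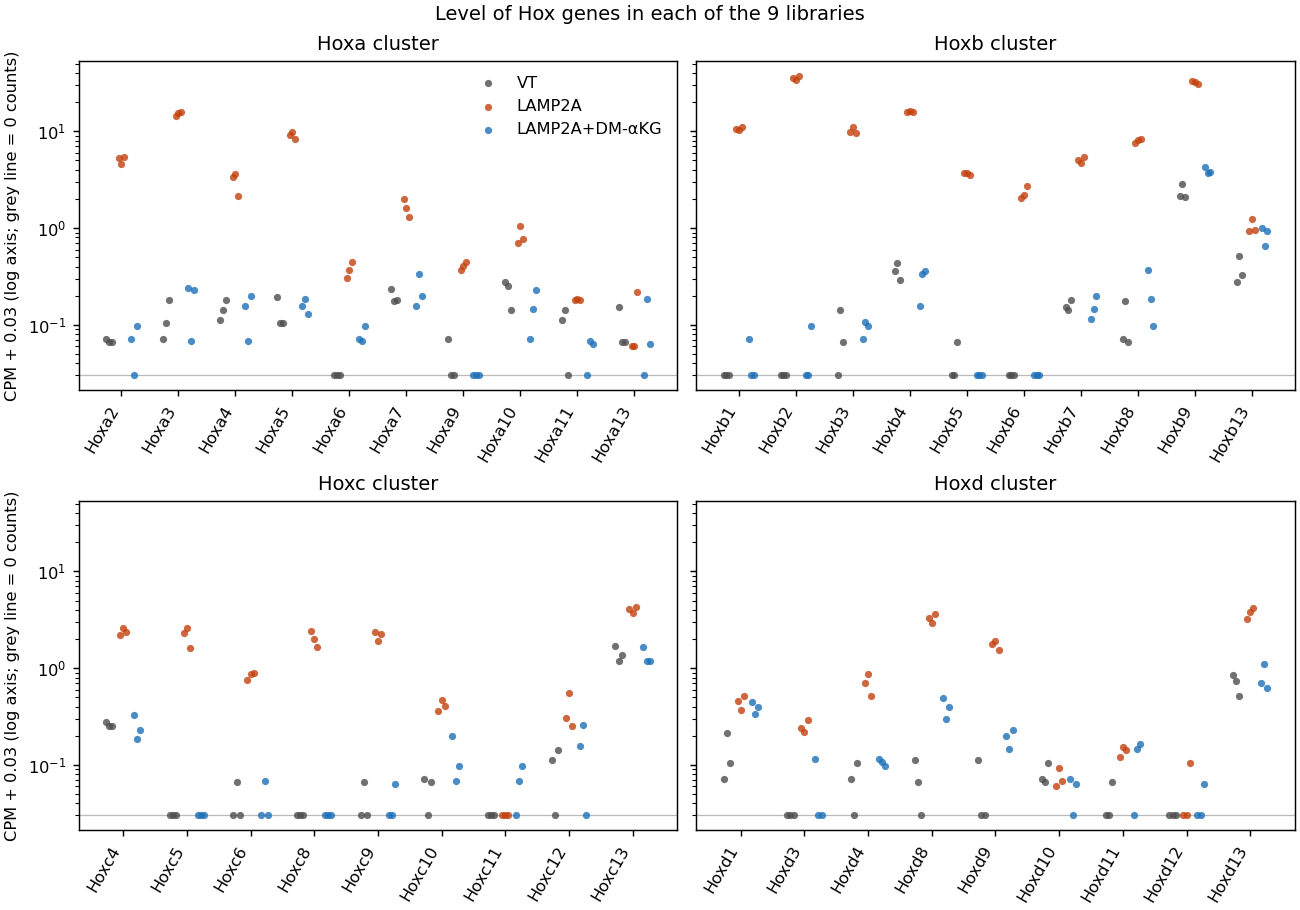
CPM of Hox genes in each of the 9 libraries, as CPM + 0.03 on a log axis, 1 panel per cluster, with the grey line for 0 counts. The LAMP2A points stand apart from both other groups for most genes, with Hoxb2 between 0 counts in VT and 35.7 CPM. LAMP2A overlaps both other groups at Hoxa13, Hoxc11, Hoxd10 and Hoxd12. It overlaps LAMP2A+DM-αKG also at Hoxb13, Hoxc12, Hoxd1 and Hoxd11.

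In the Hoxa cluster (chromosome 6, 52155590 to 52260880, 11 genes) the summed level was 3.67 ± 0.253 CPM for VT, 59.1 ± 1.29 for LAMP2A and 4.60 ± 0.421 for LAMP2A+DM-αKG. LAMP2A was 16.1-fold above VT, and for 10 of the 11 genes the libraries were apart. Several anterior and central genes started from almost nothing. Hoxa2, the selector gene of the second pharyngeal arch, had 1, 1 and 1 counts in VT and 173, 148 and 145 in LAMP2A, a ratio of 132 (95% counting interval 45.0 to 644). Hoxa3, needed for thymus and parathyroid, had 1, 2 and 4 counts against 478, 494 and 427, a log2 fold change of 7.34. Hoxa5, a lung and cervical gene, had 4, 2 and 2 against 301, 316 and 225, a log2 fold change of 6.42. The 3 genes lay in LAMP2A at 5.09 ± 0.434, 15.3 ± 0.709 and 9.12 ± 0.708 CPM, well apart from VT in every library.

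For the other Hoxa genes reported, the differences were smaller or rested on few counts. Hoxa4 had 2, 3 and 4 counts in VT and 111, 116 and 57 in LAMP2A, a log2 fold change of 4.69. Hoxa7 had 5, 4 and 4 against 64, 51 and 34 (3.25, SE 0.316). Hoxa10, used in the uterus and hindlimb, had 6, 6 and 3 against 22, 33 and 20, and rose by 2.06 (SE 0.365, adjusted p = 4.0e-06). The remaining 4 genes had too few counts for the filter. Hoxa6 had 0 counts in VT and 9, 11 and 11 in LAMP2A, at least 8.80-fold higher. Hoxa9, a leukemia-associated gene, had 1 count in VT and 11, 12 and 11 in LAMP2A, a ratio of 29.0 (4.86 to 1177). For Hoxa11 the counts were 2, 3 and 0 in VT and 5, 5 and 4 in LAMP2A. For Hoxa13, a gene of digits and the genital tract, they were 3, 1 and 1 against 1, 1 and 5, which overlap. The posterior end of this cluster was thus at most faintly detected in any group.

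The Hoxc cluster (chromosome 15, 102921103 to 103036852, 9 genes) had a summed level of 1.72 ± 0.287 CPM for VT, 14.2 ± 0.549 for LAMP2A and 1.81 ± 0.373 for LAMP2A+DM-αKG, and LAMP2A was 8.24-fold above VT. Hoxc5 and Hoxc8 had 0 counts in all 6 VT and LAMP2A+DM-αKG libraries. In LAMP2A, Hoxc5 had 75, 82 and 42 counts, at least 56.5-fold above VT, and Hoxc8, which patterns brachial motor neurons, had 79, 64 and 44, at least 53.1-fold above. Both were therefore detected in LAMP2A alone among these libraries. Hoxc9, a thoracic gene of the spinal cord, had 1 count in VT against 76, 61 and 60, a ratio of 168 (29.8 to 6661). Hoxc6 had 1 against 24, 27 and 23, a ratio of 63.0 (11.0 to 2523). Hoxc4 had 6, 6 and 6 counts in VT and 71, 82 and 63 in LAMP2A, and rose by 3.33 (SE 0.249, adjusted p = 1.9e-14). Hoxc10 and Hoxc12 were barely counted: Hoxc10 had 1, 0 and 1 counts against 11, 14 and 10 (ratio 14.9, 3.83 to 128), and Hoxc12 had 2, 0 and 3 against 9, 17 and 6. Hoxc11 had no count in VT or LAMP2A and 3 in LAMP2A+DM-αKG. Hoxc13, a gene of hair and nail, was the exception in level, with 40, 31 and 36 counts in VT and 133, 119 and 115 in LAMP2A. It took 14.3% of the Hox counts of VT and rose by 1.54 (SE 0.151, adjusted p = 2.1e-11), the smallest of the called rises.

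In the Hoxd cluster (chromosome 2, 74668310 to 74765142, 9 genes) the summed level was 0.939 ± 0.185 CPM for VT, 10.2 ± 0.506 for LAMP2A and 1.90 ± 0.0897 for LAMP2A+DM-αKG, with LAMP2A 10.8-fold above VT. Most of it came from Hoxd8, Hoxd9 and Hoxd13. Hoxd8 had 2, 1 and 0 counts in VT and 108, 94 and 96 in LAMP2A, a ratio of 84.6 (28.7 to 413). Hoxd9 had 2, 0 and 0 against 58, 61 and 40, a ratio of 67.7 (18.4 to 564). Hoxd13, the digit gene at the posterior end, had 20, 19 and 13 counts against 105, 123 and 111, and rose from 0.670 ± 0.172 to 3.72 ± 0.484 CPM (2.47, SE 0.195, adjusted p = 7.8e-14). Between Hoxd9 and Hoxd13 lie 3 genes with hardly a count: Hoxd10 had 4 over VT and 4 over LAMP2A, Hoxd11 had 1 and 10, and Hoxd12 had 0 and 2. The expressed stretch of the cluster was thus broken in the LAMP2A libraries. At the anterior end Hoxd1 had 1, 5 and 2 counts against 14, 11 and 13, and rose by 1.97 (adjusted p = 3.2e-04, and 2.73 without VT replicate 2). Hoxd3 had 0 against 7, 6 and 7, at least 5.68-fold higher, and Hoxd4 had 1, 0 and 2 against 22, 27 and 13, a ratio of 17.6 (5.75 to 87.7). Hoxd3 and Hoxd4 share 62.3% and 52.3% of their exon bases with other genes on the same strand in the annotation used here, so that reads can be lost or split between them.

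By paralog position, LAMP2A and VT were apart for 8 of 8 genes of paralog groups 1 to 3, for 15 of 15 of groups 4 to 8 and for 12 of 16 of groups 9 to 13. The summed level of the anterior genes went from 3.10 CPM in VT to 101 in LAMP2A, that of the central genes from 1.25 to 60.2 and that of the posterior genes from 5.24 to 47.0. Summed over clusters, paralog group 3 was 186-fold higher in LAMP2A, group 5 was 127-fold higher and group 8 was 115-fold higher. These folds are rough, as the groups had only 11, 9 and 9 counts over VT. Group 2 had 3 counts in VT against 3736 in LAMP2A, and group 6 had 1 against 312. Groups 10 to 13 were 4.58-fold, 3.40-fold, 5.68-fold and 3.60-fold higher, on 21, 6, 5 and 191 counts over VT. Groups 1, 4, 7 and 9 lay at 11.8-fold, 30.7-fold, 22.6-fold and 15.3-fold, so the fold did not follow the paralog number step by step. Group 9 contains Hoxb9, which was well counted in VT. In VT the posterior genes held 54.5% of the Hox counts and the anterior genes 32.4%, while in LAMP2A these shares were 22.6% and 48.4%. Besides Hoxb9, the posterior genes with most counts in VT, Hoxc13 and Hoxd13, are the terminal members of their clusters, as are Hoxa13, which was nearly absent, and Hoxb13.

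Most Hox genes were lower in LAMP2A+DM-αKG than in LAMP2A. For 31 of the 39 genes all 3 LAMP2A+DM-αKG libraries lay below all 3 LAMP2A libraries, and for none above, where 36.3% of all genes with a count lay below and 33.5% above. Without a filter on low counts 32 Hox genes fell, against 34.3% of genes. With the filter 26 of 28 fell, against 42.1% of tested genes, and 0 rose, against 41.1%. As most of these 28 passed the filter through their level in LAMP2A, a fall from it is partly built into the set and that count has no weight of its own. This comparison shares the LAMP2A libraries with the one above, so a gene measured high in them is high in both, and the calls are not independent. The authors' deposited table of LAMP2A+DM-αKG against LAMP2A lists 36 Hox genes, of which 30 are called lower and 0 higher. The share called among all 16289 genes in it was not computed either.

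Hoxb1 went from 981 counts to 1 (ratio 852, 153 to 33696) and Hoxb2 from 3270 to 2 (ratio 1420, 393 to 11734). Hoxb5 was at least 96.4-fold lower, Hoxb6 at least 59.9-fold, Hoxc5 at least 57.6-fold and Hoxc8 at least 54.1-fold, all with 0 counts in the treated libraries. Hoxa2, with 1, 0 and 2 treated counts, had a ratio of 135 (45.9 to 657). These are the genes that were at or close to 0 in VT as well. Among genes with at least 10 counts in both groups, Hoxb4 fell by 5.90 on the log2 scale (adjusted p = 2.4e-28), a ratio of 60.5 (39.4 to 98.1). Hoxa3, with 5, 1 and 6 treated counts, fell by 6.62 (ratio 101, 57.8 to 196). Hoxb7, with 2, 3 and 5, fell by 5.28 (ratio 40.2, 21.7 to 84.4). Hoxb8 had 8, 4 and 2 counts and a log2 fold change of -5.47 (-6.15 without LAMP2A+DM-αKG replicate 1).

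Among the genes best counted in VT, with over 50 counts there, the falls were smaller than those above. Hoxb9 fell by 3.04 (SE 0.074, adjusted p = 1.1e-28) to 3.91 ± 0.295 CPM. Hoxd13, with 16, 28 and 18 treated counts, fell by 2.24 (SE 0.186). Hoxc13, with 39, 30 and 35, fell by 1.61 (SE 0.152), to 1.32 ± 0.278 CPM beside 1.38 ± 0.252 in VT. Of other central genes, with fewer counts in VT, Hoxa5 (-6.14), Hoxa4 (-4.72), Hoxc4 (-3.44) and Hoxa7 (-2.99) fell. Hoxb3 went from 930 counts to 5 (ratio 162, 69.0 to 499) and Hoxd4 from 62 to 6 (8.98, 3.90 to 25.4). In genes below the filter, Hoxa6 went from 31 counts to 4, Hoxd3 from 20 to 2 and Hoxc10 from 35 to 7. Hoxc12 went from 32 to 9, Hoxa11 from 14 to 2 and Hoxa13 from 7 to 5. Hoxd10 went from 4 to 2, Hoxd11 from 10 to 7, Hoxd12 from 2 to 1 and Hoxc11 from 0 to 3. Hoxa10 had a log2 fold change of -2.66 (-3.27 without LAMP2A+DM-αKG replicate 3). Hoxc6 had a ratio of 64.3 (11.2 to 2573) and Hoxc9 of 171 (30.4 to 6794).

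Hoxb13 and Hoxd1 did not pass the test for a fall. Hoxb13 had 23, 16 and 27 counts with DM-αKG, beside 30, 39 and 25 without, a log2 fold change of -0.31 (SE 0.236, adjusted p = 0.227). Hoxd1 had 10, 8 and 11 beside 14, 11 and 13, a log2 fold change of -0.18 (SE 0.349, adjusted p = 0.625). The libraries of both genes overlapped between the groups. Taking each mean above VT, among tested genes Hoxb13 kept 71.7% of its difference and Hoxd1 kept 83.4%, while Hoxd8 kept 10.1% and Hoxd9 kept 7.91%. Among genes too low to test the share was 72.8% for Hoxd11, 44.5% for Hoxd12 and 19.6% for Hoxc12. It was 18.3% for Hoxc10, 14.3% for Hoxa6 and 12.7% for Hoxd3, all on few counts. The p-values of Hoxb13 and Hoxd1 do not show that either gene kept its level.

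Between LAMP2A+DM-αKG and VT, few Hox genes were called, and most were thinly counted. Over the group, 29 of the 39 genes had under 10 counts in VT and 23 in LAMP2A+DM-αKG. A missing call thus does not show a return to the VT level. The libraries were apart for 7 of the 39, all higher with LAMP2A and DM-αKG (among them Hoxa6, Hoxb9, Hoxb13, Hoxd1, Hoxd8 and Hoxd9), where 24.2% of all genes lay higher and 23.9% lower. Of the 28 tested, 6 rose and 0 fell, where 29.3% of tested genes rose and 29.3% fell. Hoxb9, Hoxb13, Hoxd1, Hoxd8 and Hoxd9 were among the 6, and Hoxa6 was not tested. The sum over the Hoxd cluster was 2.02-fold that of VT, over Hoxb 1.66-fold, over Hoxa 1.25-fold and over Hoxc 1.05-fold. These comparisons use the same VT and LAMP2A+DM-αKG libraries as the 2 above.

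Hoxb9 rose by 0.74 against VT (SE 0.134, adjusted p = 1.4e-05) and Hoxb13 by 1.25 (SE 0.318, adjusted p = 0.00105). Hoxd1 rose by 1.79 (adjusted p = 0.00289, and 2.55 without VT replicate 2). Hoxd8, with 11, 7 and 11 counts against 2, 1 and 0, had a ratio of 9.48 (2.94 to 48.6) and an adjusted p of 9.6e-05. Hoxd9, with 4, 3 and 6 counts against 2, 0 and 0, had a ratio of 6.37 (1.44 to 58.2) and an adjusted p of 0.0130. The Hoxd9 call was lost without VT replicate 2 (adjusted p = 0.0624), without VT replicate 3 (0.0649) or without LAMP2A+DM-αKG replicate 3 (0.0540), while without VT replicate 1, which holds both VT counts, its fitted log2 fold change went from 2.48 to 5.24 and that of Hoxd8 from 3.10 to 4.00. When only the groups compared entered the fit, 5 Hox genes passed the filter and 3 rose, Hoxb9 and Hoxb13 among them.

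**Figure D3:**
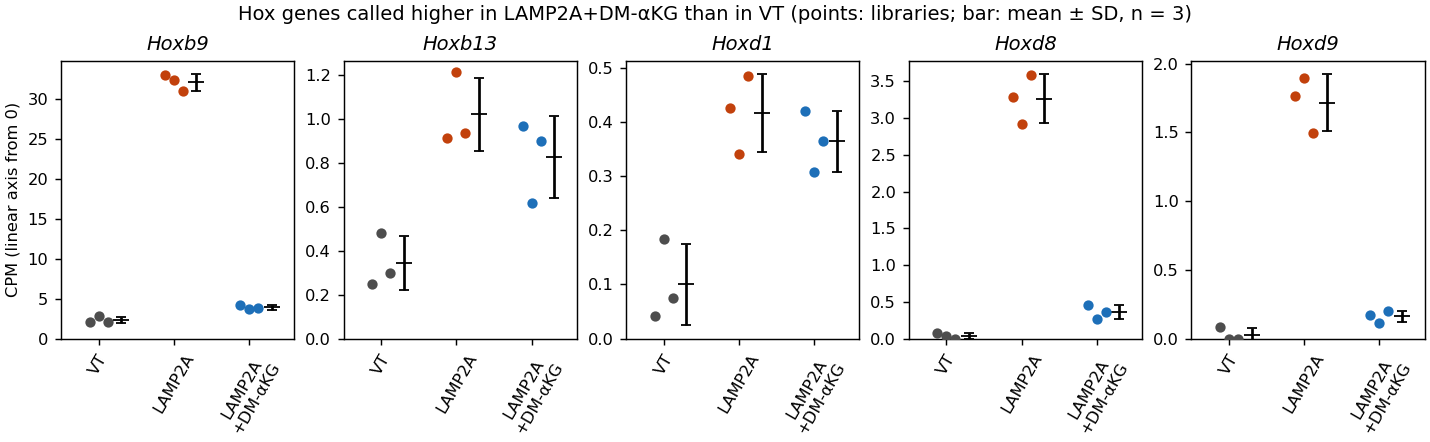
CPM in each library (points) with mean ± SD (bars, n = 3) for 5 Hox genes called higher in LAMP2A+DM-αKG than in VT, on linear axes from 0 that differ between panels. For Hoxb13 and Hoxd1 the treated libraries overlap those of LAMP2A, while for Hoxb9, Hoxd8 and Hoxd9 they lie close to VT, at 3.91 CPM for Hoxb9.

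The DNA-binding partners of Hox proteins also differed. Of the 9 TALE genes tested, 7 rose in LAMP2A, 1 fell and 1 was not called, with a median log2 fold change of 1.17, where 43.0% of all tested genes rose and 42.1% fell, with a median of 0.01. Meis1, a partner of Hox proteins in blood stem cells and leukemia, rose 51.6-fold, from 1.21 to 62.9 CPM, and was 60.2-fold lower with DM-αKG. Meis2 rose 33.2-fold (4.28 to 143 CPM) and Meis3 rose 9.37-fold (3.33 to 31.4 CPM). With DM-αKG, 7 of the 9 fell and 2 rose, against 42.1% and 41.1% of all tested genes, and Meis1 ended at 1.04 CPM, Meis2 at 2.79 and Meis3 at 2.86. Pbx4 was not called in LAMP2A against VT, and Pknox1, a relative of the MEIS genes, fell by 0.78 on the log2 scale.

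Of 14 genes that regulate Hox clusters in the embryo, 11 were tested, and 7 rose and 4 fell in LAMP2A (median 0.35), beside the same 43.0% and 42.1% of all tested genes. Fgf8 rose 20.4-fold, Rarb, a retinoic acid receptor gene that retinoic acid itself induces, rose 16.5-fold, and Cdx2, an activator of central Hox genes, rose 11.7-fold. Wnt3a (-3.17), Rarg (-1.93) and Cdx1 (-1.76) fell, on the log2 scale. The regulators thus moved in both directions. Egr2, a hindbrain activator of Hoxa2 and Hoxb2, had 2, 30 and 2 counts over VT, LAMP2A and LAMP2A+DM-αKG and was not tested, nor was Cdx4, with 7, 3 and 2. With DM-αKG, 6 of the 11 fell, 4 rose and 1 was not called, where 42.1% of all tested genes fell and 41.1% rose.

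Among 22 Polycomb and trithorax genes, which keep Hox clusters silent or active, 11 rose in LAMP2A, 9 fell and 2 were not called, with a median of 0.02, shares near the 43.0% and 42.1% of all tested genes. Of the core genes of Polycomb repressive complex 2, Ezh1 rose slightly (0.10) and 3 fell: Eed (-1.21), Suz12 (-0.76) and Ezh2 (-0.49) on the log2 scale, with the accessory genes Mtf2 (-1.54) and Jarid2 (-0.89). Genes of Polycomb repressive complex 1 were among those that rose, Cbx8 7.72-fold, Phc2 4.48-fold and Bmi1 4.44-fold, while Phc1 fell (-1.09). The demethylase gene Kdm6b rose by 0.71 and Kdm6a fell by 0.10. Protein and chromatin were not measured.

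**Figure D4:**
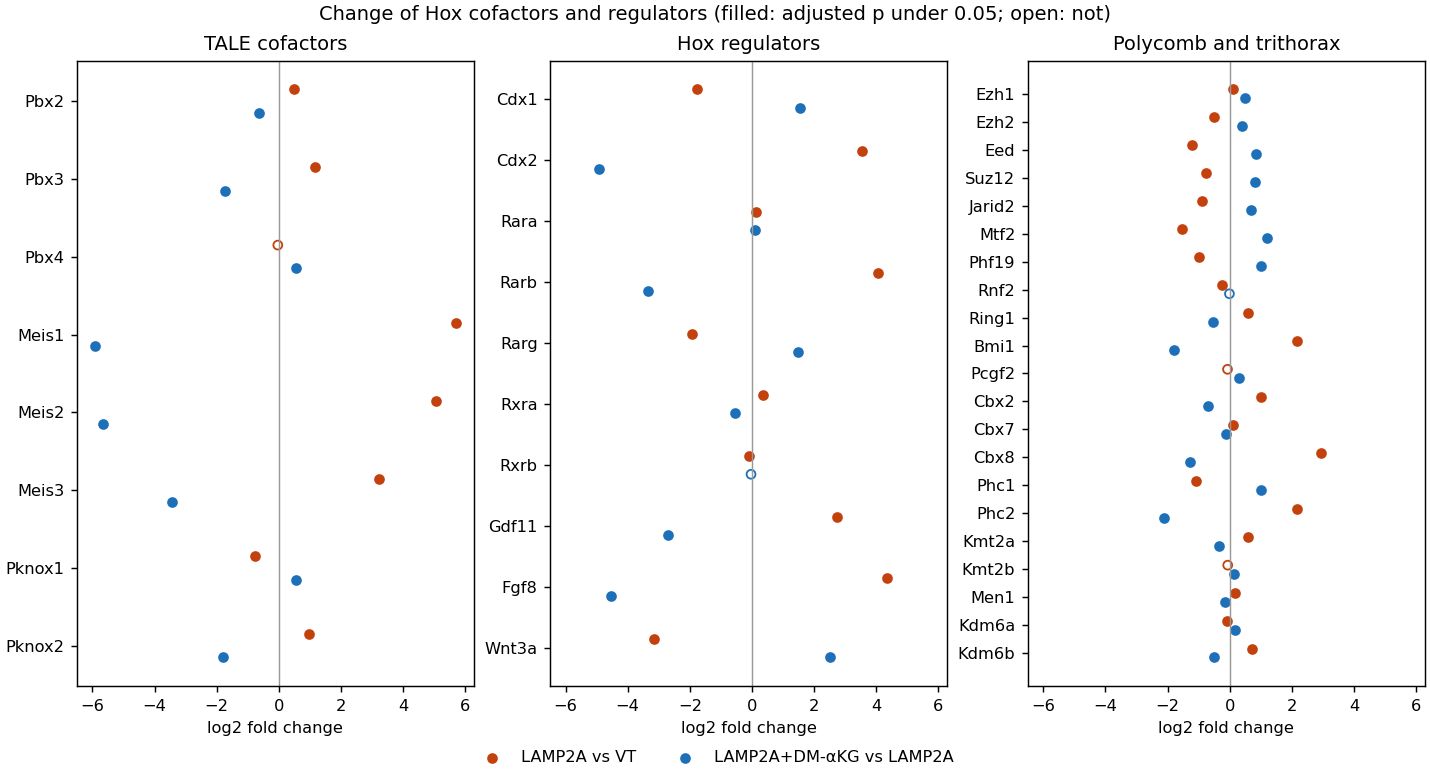
Log2 fold changes of tested TALE cofactors, Hox regulators and Polycomb and trithorax genes in LAMP2A against VT (orange) and LAMP2A+DM-αKG against LAMP2A (blue), filled where the adjusted p was under 0.05. Meis1, at 5.69, and Fgf8, at 4.35, have the largest rises shown in their panels, while Ezh2, Eed, Suz12, Jarid2 and Mtf2 lie left of 0 in LAMP2A against VT.

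Genes on either side of the clusters moved in both directions, as did the transcriptome (43.0% rose and 42.1% fell). They lie at very different distances, such as Evx2 at 8.75 kb and Snx10 at 565 kb, so the list does not describe the immediate flanks. Of 18 such genes in the table, 17 were tested, and 5 rose, 9 fell and 3 were not called in LAMP2A, with a median of -0.22. The highest value was that of Evx1, a homeobox gene next to Hoxa13, which rose by 1.60 on 13, 47 and 17 counts over the 3 groups. Skap1, beside the Hoxb cluster, rose by 1.30. Evx2, next to Hoxd13, had no count. Non-coding genes within the clusters were mostly too low to test: 16 were listed, 6 of them without a count, and 4 were tested. Hotairm1, in the Hoxa cluster, rose by 3.15 (0.361 to 3.20 CPM) and fell by 2.09 with DM-αKG. Halr1, a non-coding gene near the Hoxa cluster, was already at 38.7 CPM in VT and fell by 1.24 to 16.3 CPM, and stood at 19.9 CPM with DM-αKG. Hoxaas2 had 2, 73 and 1 counts over the groups.

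Homeobox genes of the same class outside the clusters were tested for 13 of 21 members, and 9 rose, 3 fell and 1 was not called in LAMP2A, with a median of 3.33, where 43.0% of tested genes rose and 42.1% fell. Low genes can pass the filter through their level in LAMP2A, which bears on this count and median. Dlx2 rose by 5.40, Msx1 by 5.27, Msx2 by 5.24 and Meox1 by 4.60 on the log2 scale. Dlx5 had 0, 117 and 1 counts over VT, LAMP2A and LAMP2A+DM-αKG. Gbx2, a gene of the anterior hindbrain and of naive ES cells, fell by 2.40. Dlx3, with a rise of 2.67, was -0.16 with DM-αKG and not called, as were Hoxb13 and Hoxd1.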

How the data were processed

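RNA of 9 libraries (VT, LAMP2A and LAMP2A+DM-αKG, 3 each, grouped by the labels) was analysed from the raw counts per gene symbol that the authors deposited, which are whole numbers and not normalized. The submitters' processing notes name STAR 2.7.1, HTSeq 0.11.2 and mm10. Neither gene annotation nor strandedness of the counting is given in the sources used here. Per the file headers, the authors' deposited comparison tables hold for each gene a p-value, raw and adjusted, a test score, a log2 fold change with its error and a mean signal of normalized counts, and the notes name DESeq2 without a version. Only calls and signs were taken from them.

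The fit used edgeR 4.0.16 under R 4.3.3 (filterByExpr with a minimum count of 10, TMM, robust glmQLFit, glmQLFTest) over all libraries, with 6 residual degrees of freedom. A gene was called, and is said to rise or fall, at a Benjamini-Hochberg adjusted p under 0.05 over all 14513 genes tested. SE, approximate, is |log2 fold change| divided by the root of its F statistic, given where both groups had at least 10 counts. It can lie below counting error alone, as for Hoxb4, and should be read as a low figure. CPM are counts over the library total and its TMM factor, per kilobase of exon where genes are compared. A fold against a group at 0 was taken against 3 counts over the group. Groups of 1 to 3 counts, and some of more, give a ratio of pooled counts with a 95% counting interval. Both cover counting error only. Coordinates and exon overlap are from GENCODE, which held 23384 of the 24421 symbols. The script was checked on simulated counts.

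All Hox genes were analysed and named by the rule, and some items are not reported here. From each related list up to 4 of the called genes of largest change were named, with others whose role bears on the Hox genes. The members and lists were chosen with earlier results of these data known. Alternatives were another normalization, other filters, no robust estimation, DESeq2 1.42.0, a replicate block, only the groups compared, and leaving out each library.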

Additional observations from a re-analysis of the deposited data

How the results depend on the processing

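Over 16 alternative fits, the number of Hox genes tested changed with the filter. Without a filter, 34 of 39 were called higher in LAMP2A than in VT. With a minimum of 1 CPM it was 23 of 23, with DESeq2 33 of 37, and with any library left out all 28 to 30 tested. Those called lower with DM-αKG were 32 of 39, 23 of 23, 30 of 37, and 26 to 28 of 28 to 30. Against VT, treated cells had 6 of 39, 4 of 23, 6 of 32 and 5 to 6 of 28 to 30 higher. When only these 2 groups were fitted, 5 Hox genes passed the filter and 3 were higher. Without a filter, the shares of all genes called in these 3 directions were 35.4%, 34.3% and 22.5%. Shares over all genes in the other fits are not given here. Of 976 refitted gene values, 972 kept their direction and side of the threshold and 4 lost their call, 3 of them for Hoxd9, all against VT. None changed direction. With the replicate number as a block the counts were 28, 26 and 6, as without it. No pairing by replicate number was seen. Same-numbered libraries had correlations of their deviations from -0.0266 to 0.0117. Of 9 libraries, 0 lay closest to their own number in both other groups. These values cannot show whether a number marks a shared culture or day. Depth limits the 11 Hox genes that did not pass the filter, for which only large differences could be seen.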
